A study of Mus musculus with 12 samples.

Results

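The comparison covered DNA methylation in 2 kinds of T cell culture, with iTreg and Th17 cells as one side and Th1 and Th2 cells as the other, measured as 5-methylcytosine (5mC) over gene areas. Gene areas are stretches of the mm9 mouse genome named by gene, one value per library. A gene area was a member if it was at least 3000 bp long and had a mean 5mC signal of at least 0.5 over all 5 libraries made with the 5mC antibody, a rule blind to the direction of any difference. Of 37544 gene areas 16571 were members, and 4 of the 12 libraries entered the comparison. Of the 22862 gene areas long enough, 6291 were left out for low 5mC.

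The 4 groups were 1 library each of iTreg cells and of Th17 cells (induced regulatory and interleukin 17-producing helper T cells), against 1 library each of Th1 and of Th2 cells (interferon gamma-producing and interleukin 4-producing helper T cells). A library of naive T cells, which are undifferentiated, is given beside them. Sonicated, denatured genomic DNA was immunoprecipitated with an antibody to 5mC and sequenced, and parallel libraries used an antibody to 5-hydroxymethylcytosine (5hmC), while control IgG and untreated input DNA were made from Th17 cells. The study used mice with a floxed Tet2 gene and a CD2-driven Cre, which acts in lymphocytes, and wild-type littermates on a mixed background. The labels do not say which genotype, how many mice, which sex, or which culture agents stood behind a library.

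As background, methylation of cytosine in CG pairs is copied at replication by Dnmt1 and is removed by dilution or through oxidation to 5hmC by Tet enzymes. TGF-beta is the cytokine that the usual recipes for iTreg and Th17 cells share and that those for Th1 and Th2 cells lack; it signals through paired receptor kinases to Smad2 and Smad3, which enter the nucleus with Smad4. In T cells low methylation of a signature cytokine gene or of Foxp3 regulatory DNA is known to go with stable expression. A value over a whole gene area averages exons and introns alike, so short regulatory stretches weigh little in it.

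The CG pairs that can carry 5mC at the start of a gene are shown for 4 genes at the ends of the comparison, Il17a and Pik3ip1 with lower 5mC and Cd63 and Erh with higher 5mC in iTreg and Th17 cells. These are RefSeq promoters of build GRCm38.p6, 250 bases before the gene's start to 50 after it, 5′ to 3′ along the gene's strand, with each CG in capitals. They lie at chr1:20730655-20730954 (plus strand), chr11:3330481-3330780 (plus), chr10:128909095-128909394 (plus) and chr12:80644062-80644361 (minus).
Il17a: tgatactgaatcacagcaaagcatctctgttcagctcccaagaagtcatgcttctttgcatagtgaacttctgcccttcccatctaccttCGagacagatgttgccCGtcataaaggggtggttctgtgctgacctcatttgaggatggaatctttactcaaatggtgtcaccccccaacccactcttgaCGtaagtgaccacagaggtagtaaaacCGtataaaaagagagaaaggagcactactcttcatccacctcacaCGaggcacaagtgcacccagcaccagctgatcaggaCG
Pik3ip1: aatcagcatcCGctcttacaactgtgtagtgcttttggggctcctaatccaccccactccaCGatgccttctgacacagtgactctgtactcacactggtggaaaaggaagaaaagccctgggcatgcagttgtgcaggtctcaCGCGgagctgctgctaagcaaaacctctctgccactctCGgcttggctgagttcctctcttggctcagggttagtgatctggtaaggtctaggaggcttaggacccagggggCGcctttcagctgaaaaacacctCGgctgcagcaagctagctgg
Cd63: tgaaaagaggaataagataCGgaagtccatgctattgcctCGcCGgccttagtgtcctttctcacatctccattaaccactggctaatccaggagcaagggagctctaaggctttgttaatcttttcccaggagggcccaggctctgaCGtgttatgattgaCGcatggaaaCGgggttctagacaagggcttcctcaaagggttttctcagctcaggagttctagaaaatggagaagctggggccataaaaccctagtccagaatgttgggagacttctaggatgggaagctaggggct
Erh: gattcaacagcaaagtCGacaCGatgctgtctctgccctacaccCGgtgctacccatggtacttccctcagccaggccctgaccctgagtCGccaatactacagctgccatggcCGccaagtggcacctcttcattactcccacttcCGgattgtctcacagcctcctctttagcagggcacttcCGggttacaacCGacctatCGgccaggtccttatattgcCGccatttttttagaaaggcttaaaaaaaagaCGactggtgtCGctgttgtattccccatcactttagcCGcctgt
Il17a had 6 CG pairs in this window, Pik3ip1 had 7, Cd63 had 6 and Erh had 13. The letters CG read the same on both strands. Among all 32851 RefSeq promoters the median was 7, and 5.43% held no CG. Among the 11640 members with a promoter the median was 18, so all 4 genes lay below it. Where a gene area begins at the gene's start, the first 250 of the 300 bases lie outside it and the values below do not measure them.

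The 5mC values are low and are rounded to 1 decimal. Over the members the library medians were 0.9 in iTreg, 0.9 in Th17, 1.0 in Th1 and 0.9 in Th2, with 1.0 in naive cells, so a rounding step of 0.1 is a large part of a typical value. Input DNA had a median of 2.0 and IgG 1.1. Read depths are not known from these values. Across gene areas the rank correlation was 0.79 between iTreg and Th17, 0.84 between Th1 and Th2, and 0.81 to 0.82 between libraries of different sides, so iTreg and Th17 were ranked no more alike than libraries across sides. With input DNA the 4 libraries had rank correlations of 0.48 to 0.53, and with IgG 0.09, over the same 16571 gene areas.

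The names of the libraries could be checked only in part. In 5hmC, Il17a had a signal of 31.3 in the library labelled iTreg and 8.8 in that labelled Th17, and Il17f had 32.8 and 5.3, which goes against these 2 labels. In 5mC, Il17a had 0.3 in iTreg and 0.4 in Th17 cells, 1 rounding step apart. Both libraries are on the same side, so an exchange of their labels would leave every difference between sides as it is. Ifng had its highest 5mC, 1.1, in Th1 cells. Il4 had 1.5 in Th2 cells and 1.5 in iTreg cells, so neither gene marked its own cell type by low 5mC.

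No gene area passed the test between iTreg and Th17 on one side and Th1 and Th2 on the other with limma, a linear model that shares its estimate of spread across gene areas. The share called at a Benjamini-Hochberg adjusted p under 0.05 was 0% of 16571, and the smallest adjusted p was 0.709. At an unadjusted p under 0.05, limma gave 160 gene areas higher in iTreg and Th17 cells, 0.966% of those tested, and 943 lower, 5.69%. Each cell type gave 1 library, so limma's spread is the one among cell types sharing a side, not one between animals or cultures. An exact permutation test of 2 against 2 cannot go below a two-sided p of 0.3333.

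The differences between side means were spread about as widely as the differences within sides alone would make them. Each value was divided by its library's median, 0.2 was added and log2 was taken, so differences are on that scale and understate changes of low values. The difference between side means had an SD of 0.22 across gene areas, whereas iTreg minus Th17 had an SD of 0.32 and Th1 minus Th2 0.28. From these within-side differences alone, side means would differ with an SD of 0.21. Only 4 of 16571 gene areas differed by 2-fold or more, and the extremes were -1.11 and 0.97.

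**Figure D1:**
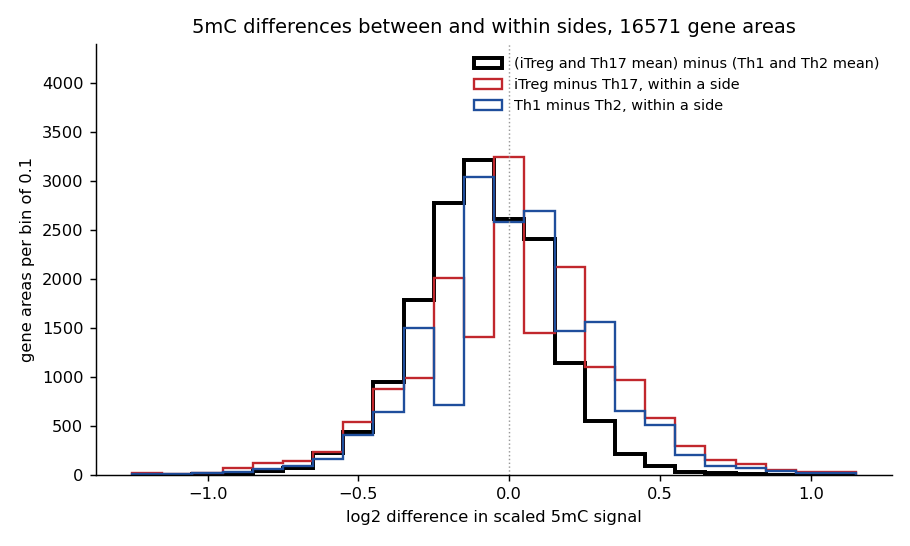
Histogram of log2 differences in scaled 5mC signal (x axis) over 16571 gene areas (y axis, number per bin of 0.1), for the mean of iTreg and Th17 minus the mean of Th1 and Th2 (black), iTreg minus Th17 (red) and Th1 minus Th2 (blue). The black curve is centred at -0.09 and is narrower (SD 0.22) than the red (0.32) and the blue (0.28).

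Sides that do not overlap were counted without a test. Both iTreg and Th17 lay above both Th1 and Th2 in 1066 gene areas, 6.43%, and below both in 4025, 24.3%. With a log2 difference of at least 0.5 as well, 80 were higher, 0.483%, and 494 lower, 2.98%. When every deposited value was moved by 0.05 against the difference, as far as rounding can have moved it, the sides stayed apart in 320 higher gene areas, 1.93%, and 1767 lower ones, 10.7%. This last condition is called the rounding rule below.

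The surplus of lower gene areas went with the scaling, and with the length minimum where this changed the library medians. The median difference over all members was -0.09, with 11149 below 0 and 5326 above. Because medians of rounded values move in steps of 0.1, libraries with unrounded medians near 0.86 (iTreg), 0.85 (Th17) and 0.92 (Th2) all count as 0.9. Interpolated medians of 0.862, 0.852, 1.03 and 0.920 for iTreg, Th17, Th1 and Th2 gave a median difference of -0.0001 and 1053 higher against 1163 lower gene areas by the rounding rule. Scaling by library means gave 1031 higher and 1182 lower, and median-ratio scaling gave 1031 and 1207. The lower share of gene areas past the rounding rule was 84.7% with library medians, 53.4% with means, 52.5% with interpolated medians, 53.9% with median ratios and 94.6% without scaling. With library medians it turned to 26.6% among gene areas of 10000 bp or more and to 38.3% without a length minimum, so that more were higher than lower. Results below are therefore read against the median of all gene areas. Counts past the rounding rule use library medians and stand beside the shares of all gene areas under that same scaling. There 84.7% of the calls were lower. The lower share of gene areas differed with their 5mC level. It was 5.89% at a mean 5mC of 0.5 to under 0.7, 12.0% at 1 to under 1.5 and 20.8% at 1.5 to under 3. The shares of lists below are not matched for this level. The gene areas called stable in what follows were past the rounding rule under library medians and under 4 other scalings. These were medians over all gene areas, means, interpolated medians and median ratios. Of all 16571 gene areas, 318 were stable higher ones and 1163 stable lower ones. Of the 320 higher gene areas under library medians 318 were stable, so being stable adds little for a higher one. Of the 1767 lower ones 1163 were stable, which is the base for the counts of stable list members below. The stable lower count equals that under interpolated medians, so the 2 stable counts do not measure a surplus of lower gene areas.

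**Figure D2:**
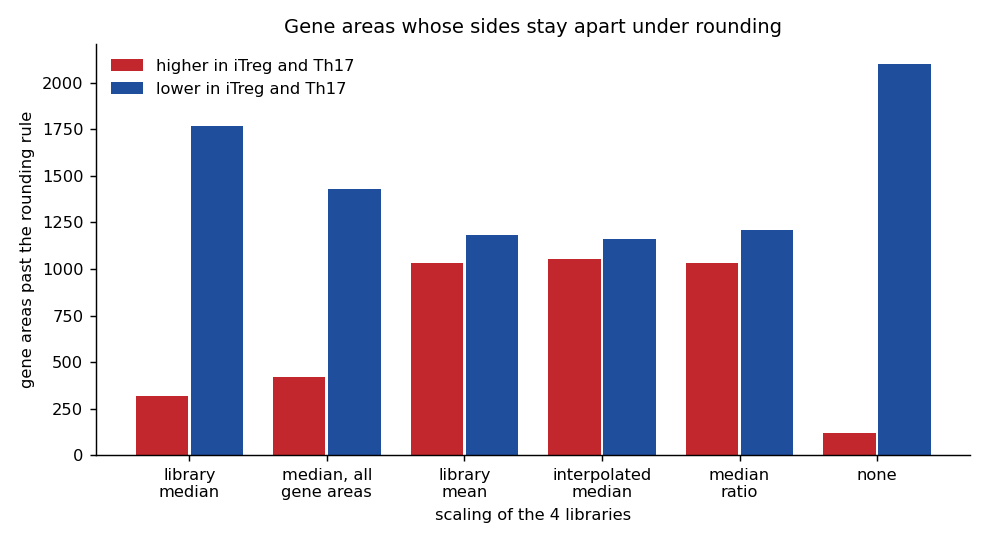
Number of gene areas past the rounding rule (y axis), higher (red) or lower (blue) in iTreg and Th17 cells than in Th1 and Th2 cells, under 6 scalings of the 4 libraries (x axis). Bars for library medians stand at 320 and 1767, those for interpolated medians at 1053 and 1163.

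Among the gene areas at the low end stood Il17a, the signature cytokine of Th17 cells, and genes of many other functions. By a rule of size, the 12 lowest named genes past the rounding rule were Epor, Zfp963, Fndc4, Pik3ip1, Kif4b, Fam46b, Bcl2l10, Icam5, Fabp3, Il17a, Trim13 and Thg1l, with differences between -1.05 and -0.83. All 12 were stable in the sense above. Each had an adjusted p of 0.709 with limma, so none passed the test.

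Epor, the receptor of erythropoietin, had 5mC of 0.6 in iTreg and 0.2 in Th17 cells, against 1.0 in Th1 and 1.0 in Th2 cells, with 0.9 in naive cells. Pik3ip1, a brake on PI3 kinase in T cells whose promoter is shown above, had 0.4 and 0.3 in iTreg and Th17, against 1.1 and 0.7 in Th1 and Th2, and 0.5 in naive cells. For Pik3ip1 the naive value thus lay nearer to iTreg and Th17, and for Epor nearer to Th1 and Th2. The Pik3ip1 gene area overlaps another in the table, and their signals cannot be told apart. Fam46b, a poly(A) polymerase of RNA, had 0.8 and 0.9 in iTreg and Th17, against 2.1 and 1.6 in Th1 and Th2. Its 2 sides were 0.7 apart at their nearest, with an IgG signal of 6.5 over this gene area. Zfp963, a zinc finger gene, had 0.3 in both iTreg and Th17, against 0.9 and 0.8 in Th1 and Th2. Bcl2l10, of the Bcl-2 family, had 0.5 in iTreg and 1.4 in Th17, against 2.0 and 1.7 in Th1 and Th2; without iTreg its difference was -0.29, without Th17 -1.50. Leaving out 1 library also moved Epor to -0.53 and Trim13 to -0.42 without Th17, and Fndc4 to -0.60 without iTreg.

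At the high end, the 12 named genes were Foxl2os, Cd63, Avpr1a, Erh, Fabp9, Nat3, Hoxb7, Cyp2d10, Rtbdn, Ahcy, Hscb and Rnf39, with differences between 0.97 and 0.59. All 12 were stable, as were 318 of the 320 higher gene areas past the rounding rule. For each of the 12 the adjusted p with limma was again 0.709. Foxl2os, an antisense transcript, had 0.8 and 0.5 in iTreg and Th17, against 0.2 and 0.3 in Th1 and Th2. At such values 1 rounding step is a large part of the signal.

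Cd63, a tetraspanin of lysosomes and secretory vesicles, had 2.0 in iTreg and 1.7 in Th17 cells, against 0.9 in Th1 and 1.3 in Th2 cells, with 1.9 in naive cells. Its log2 difference was 0.74, and 0.45 without Th1 and 1.03 without Th2 at the extremes when 1 library was left out. Erh, a small conserved protein of RNA processing, had 1.1 and 0.8 in iTreg and Th17, against 0.6 and 0.5 in Th1 and Th2, with 0.4 in naive cells. Ahcy, which clears the by-product of methyl transfer from S-adenosylmethionine, had 1.1 in both iTreg and Th17, against 0.7 in both Th1 and Th2. Avpr1a, a vasopressin receptor, had 0.9 and 0.6 against 0.4 and 0.4. In naive cells Cd63 and Avpr1a were near the iTreg and Th17 values (1.9 and 1.0), and Ahcy and Erh near those of Th1 and Th2 (0.8 and 0.4). Hoxb7 had 0.9 in both iTreg and Th17, against 0.5 and 0.6 in Th1 and Th2, with an IgG signal of 5.8.

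**Figure D3:**
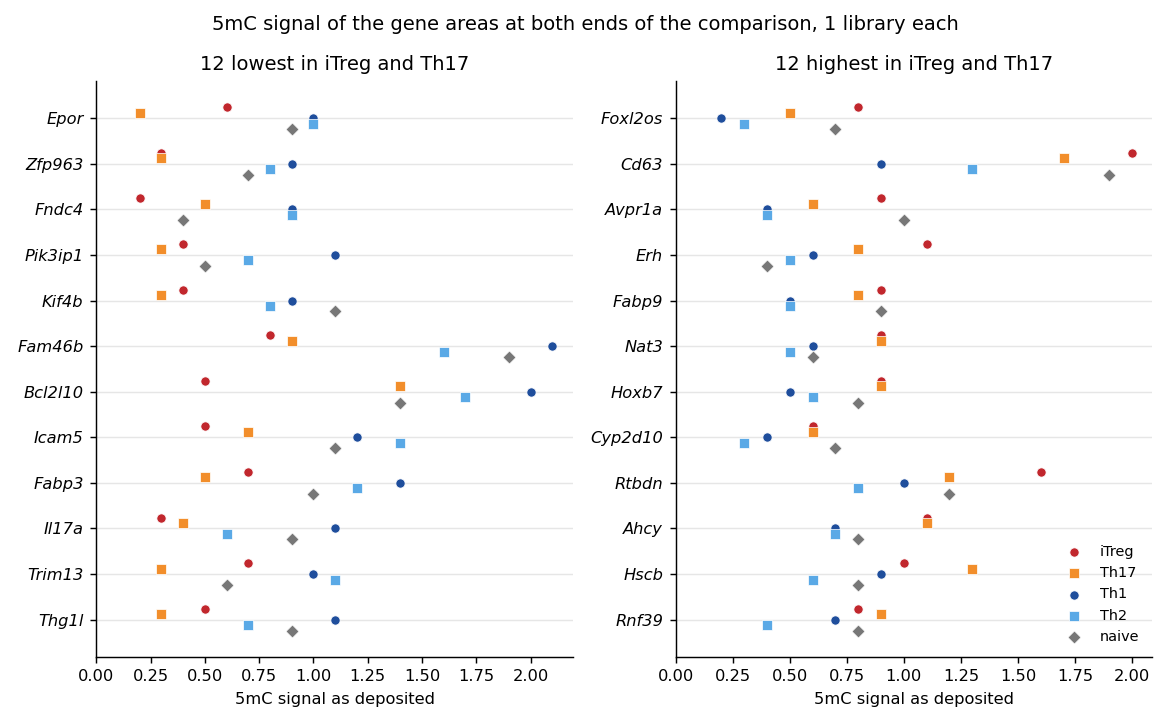
5mC signal as deposited (x axis) of the 12 lowest and 12 highest named genes (rows) in iTreg, Th17, Th1, Th2 and naive libraries, 1 point each. Within each row the red and orange points lie on one side of both blue points; the nearest gap is 0.1 for Rnf39 and Hscb, and 0.7 for Fam46b.

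Il17a was the T helper signature gene with the largest difference. It had 0.3 in iTreg and 0.4 in Th17 cells, against 1.1 in Th1 and 0.6 in Th2 cells, with 0.9 in naive cells, a log2 difference of -0.86 that lay between -1.15 (without Th2) and -0.56 (without Th1) over all alternatives. Its gene area spans mm9 chromosome 1, 20720985 to 20724576, overlaps no other, and had an IgG signal of 3.1. Il17f, its neighbour and close relative, had 0.3 and 0.6 in iTreg and Th17, against 0.7 and 0.7 in Th1 and Th2. The difference of Il17f was -0.46, and -0.11 without iTreg. Farther along the chromosome, Mcm3, a subunit of the replication helicase, had 1.0 and 1.1 in iTreg and Th17, against 1.5 and 1.4, a difference of -0.34. On the other flank Pkhd1 had 0.4 and 0.6 against 0.6 and 0.4, with overlapping sides. In 5hmC the Il17a sides overlapped, with 31.3 under the iTreg label and 8.8 under the Th17 label, against 10.8 and 4.3 in Th1 and Th2.

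Of the 20 measured Th17 genes, 14 lay below the median of all gene areas and 6 above, with a list median of -0.22 that was above the overall one at a mean 5mC of at least 1 and below it in the other settings. By the rounding rule 2 were lower, Il17a and Nfkbiz, a nuclear factor induced by interleukin signals, and none was higher. The 2 are 10.0% of the list, near the 10.7% of all gene areas that were lower. Il21 had 0.5 and 0.7 in iTreg and Th17, against 0.9 and 0.8 in Th1 and Th2. Rora, a nuclear receptor of Th17 cells, had 0.7 and 0.8 against 0.9 and 0.9, and Ahr and Ccr6 had overlapping sides. Il23r did not reach the 5mC minimum.

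iTreg genes also lay on both sides of the overall median. Of 19 measured, 8 lay below and 11 above the overall median, with a median of -0.04 that was above that of all gene areas in 16 of 18 settings. By the rounding rule 4 were lower, 21.1% of the list where 10.7% of all gene areas were: Lrrc32, Fgl2, Gpr83 and Cd83. All but Gpr83 were stable. Lrrc32, which holds latent TGF-beta on the surface of regulatory T cells, had 1.1 in iTreg and 0.8 in Th17, against 1.7 in both Th1 and Th2, with 1.5 in naive cells. Its sides were 0.6 apart, and its difference of -0.68 was the lowest in both lists that hold it. Fgl2, a secreted fibrinogen-like protein of regulatory T cells, had 0.4 in both iTreg and Th17, against 0.6 and 0.7. Foxp3, the defining factor of regulatory T cells, had 0.8 and 0.9 against 1.2 and 0.7, so its sides overlapped, and its difference was -0.03. Il2ra had 0.8 in both iTreg and Th17, against 0.9 and 0.7, and Itgae 1.1 in both, against 1.2 in both. Nt5e, an ectoenzyme that makes adenosine, had the highest difference of the list at 0.32, with 0.7 and 0.8 against 0.7 and 0.5. Ctla4 did not reach the 5mC minimum.

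Genes of the TGF-beta pathway itself lay on both sides of the overall median. Of 33 measured ligands, receptors, Smads and their regulators, 18 lay below and 15 above the overall median, and the list's median was -0.12, which was above the overall median without Th1 and below it in the other settings. By the rounding rule 5 were lower, 15.2% of the list against 10.7% of all gene areas, and 0 higher, against 1.93%.
Among ligands and their processing, Tgfb1 had 1.7 and 1.1 in iTreg and Th17, against 1.3 in both Th1 and Th2, and without iTreg its difference turned to -0.14. Tgfb2 had 0.9 in both, against 1.0 and 0.8, and Tgfb3 had 0.6 and 0.9 against 0.9 and 1.0. Furin, the protease that cleaves the TGF-beta precursor, had 1.2 and 1.1 in iTreg and Th17, against 1.6 in both Th1 and Th2, and was past the rounding rule. Bmp7, a ligand of the related bone morphogenetic branch, was past it too, with 1.7 in both against 2.1 and 1.9.
Among receptors, Tgfbr2 had 1.4 and 1.0 in iTreg and Th17, against 1.3 and 1.5, and Tgfbr1 did not reach the 5mC minimum. The co-receptors Tgfbr3 and Eng differed by -0.23 and -0.21. None of the receptors was past the rounding rule.
Among Smads, Smad3 had 0.9 in both iTreg and Th17, against 1.2 in both Th1 and Th2, and its difference of -0.29 lay between -0.35 and -0.15 over all alternatives. Smad1, of the bone morphogenetic branch, had 0.8 in both, against 1.3 and 1.0. Smad2 had 0.4 in both, against 0.8 and 0.4, so Th1 alone was high. Smad4, the shared partner, had 0.8 and 0.6 against 1.1 and 0.8, and Smad7, the inhibitor that the pathway induces, had 1.0 and 1.1 against 1.3 in both. Lrrc32, Smad1, Furin and Smad3 were stable under all scalings, and Bmp7 was not.

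Of 20 measured genes that TGF-beta induces in many cell types, 11 lay below and 9 above the overall median, with a median of -0.14 that was above the overall one without Th2. Ski, a repressor that binds Smads, had 0.7 and 0.8 in iTreg and Th17, against 1.1 and 1.0 in Th1 and Th2. Pmepa1, a membrane protein that curbs the pathway, had 1.5 and 1.4 against 2.2 and 1.7. These 2 were past the rounding rule, 10.0% of the list and so near the 10.7% of all gene areas, and only Ski was stable.

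**Figure D4:**
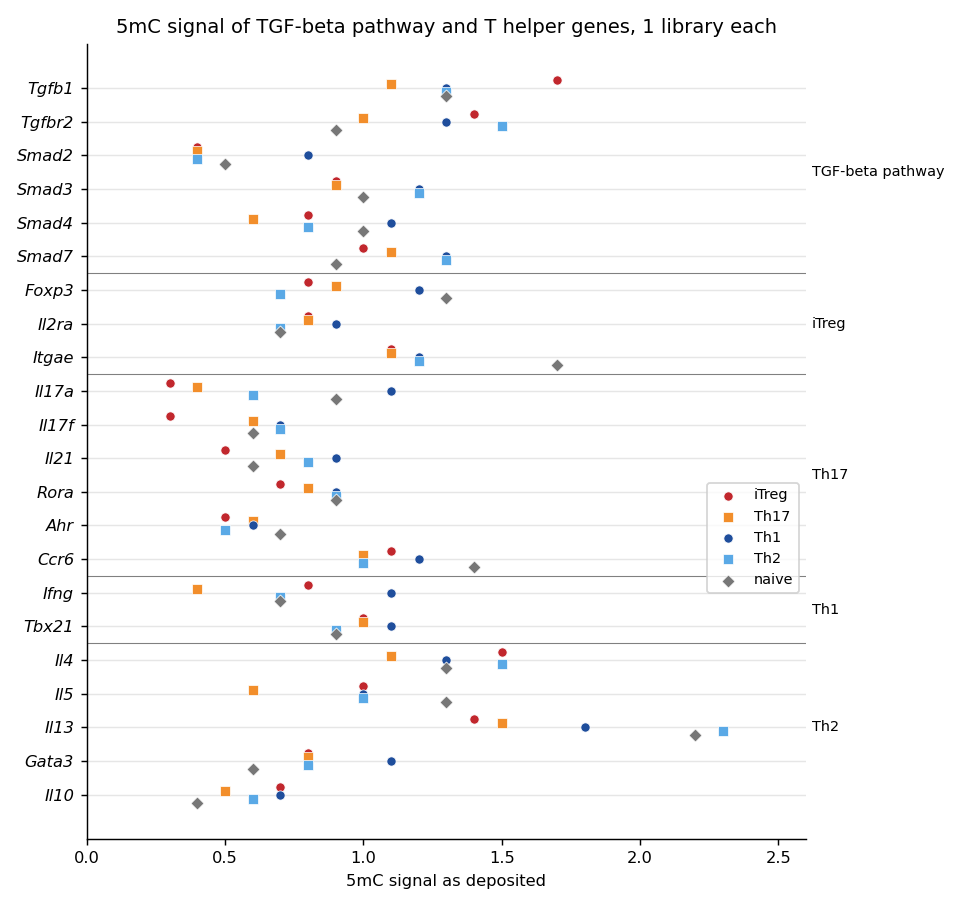
5mC signal as deposited (x axis) of TGF-beta pathway and T helper genes (rows) in iTreg, Th17, Th1, Th2 and naive libraries, 1 point each. Il17a, Il13, Smad3 and Smad7 have both iTreg and Th17 points left of both Th1 and Th2 points by at least 0.2. In Il17f, Il21, Rora and Itgae they lie left by 0.1. Foxp3, Il2ra, Il4 and Tgfb1 have overlapping sides.

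Genes of Th1 and Th2 cells also lay below the overall median more often than above it. Of 14 measured Th1 genes 9 lay below and 5 above the overall median, and of 18 Th2 genes 13 below and 5 above, with medians of -0.23 and -0.13; without Th17 the Th2 list was above the overall median. Ifng had 0.8 and 0.4 in iTreg and Th17, against 1.1 and 0.7 in Th1 and Th2, with overlapping sides, and Tbx21, the lead Th1 factor, had 1.0 in both against 1.1 and 0.9. Past the rounding rule were Runx3 and Havcr2 of the Th1 list and Il1rl1, Epas1 and Il13 of the Th2 list, all lower, which is 14.3% and 16.7% of these lists against 10.7% of all gene areas. Il1rl1, the receptor of interleukin 33, had 0.6 and 0.5 in iTreg and Th17, against 1.0 and 0.9 in Th1 and Th2, with 0.6 in naive cells. Il13 had 1.4 and 1.5 against 1.8 and 2.3, with 2.2 in naive cells, and was not stable under all scalings. In the same cluster Il4 had 1.5 and 1.1 against 1.3 and 1.5, and Il5 had 1.0 and 0.6 against 1.0 in both, so only Il13 had sides apart. Gata3 had 0.8 in both iTreg and Th17, against 1.1 and 0.8, with an IgG signal of 15.1. Il12rb2 did not reach the 5mC minimum, and Cxcr3 spans 2611 bp and was too short.

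Cytokine receptors lay low as a list. Of 37 measured, 29 were below the median of all gene areas and 8 above, with a list median of -0.20, and the list stayed below the overall median in 18 of 18 settings. By the rounding rule 7 were lower, 18.9% of the list, and 0 higher, where 10.7% and 1.93% of all gene areas were. The 7 were Il1rl1, Il20ra, Csf2ra, Il10rb, Il3ra, Ifnar1 and Ifngr1, and 5 of them were stable. Csf2ra, a subunit of the receptor for the growth factor GM-CSF, had 1.4 and 1.8 in iTreg and Th17, against 2.4 and 2.3 in Th1 and Th2. Il10rb, which the receptors for interleukins of the Il10 family share, had 0.8 and 1.0 against 1.3 in both. Il2rb, at the other end, had 1.1 and 0.7 against 0.9 and 0.6, and Il2ra lay at 0.07. Of 27 measured cytokines 18 lay below and 9 above, with a median of -0.18, which was above that of all gene areas without Th17. Past the rounding rule were Il17a, Il1b, Il25 and Il13 as lower, 14.8% of the list, and Il18 as higher. Il1b had 0.4 and 0.3 in iTreg and Th17, against 0.8 and 0.7, with 0.3 in naive cells. Il25 had 1.1 and 0.7 against 1.6 and 1.3, with an IgG signal of 20.5, and Il18 had 1.2 and 1.3 against 1.2 and 1.0.

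Transcription factor genes of the AP-1, Batf and Irf groups also lay low as a list. Of 19 AP-1, Batf and Irf factors 14 lay below and 5 above the overall median, with a median of -0.21 that stayed below in 18 of 18 settings. Past the rounding rule 4 were lower, 21.1% of the list where 10.7% of all gene areas were, and 2 of these, Maff and Mafk, were stable. Maff, a small Maf protein, had 0.8 in both iTreg and Th17, against 1.3 and 1.2 in Th1 and Th2, and Mafk had 1.1 in both against 1.6 in both. Irf7 had 1.6 and 0.8 against 2.0 and 2.3, and Atf3 had 0.8 and 0.5 against 1.0 in both, and neither was stable. Of 34 Notch and Wnt genes, 21 lay below and 13 above, with 5 lower by the rounding rule, 14.7% of the list, of which 4 were stable. Notch1 had 0.7 in both iTreg and Th17, against 1.0 in both Th1 and Th2, and Tcf7, a factor of naive T cells in the same pathway group, had 0.6 and 0.5 against 0.9 and 0.8, with 0.4 in naive cells.

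The enzymes that write, read and remove 5mC showed a like picture. Of 23 measured, 14 lay below and 9 above the overall median, with a median of -0.17 that stayed below in 18 of 18 settings. Past the rounding rule 4 were lower, 17.4% of the list, and 1 higher, where 10.7% and 1.93% of all gene areas were. Of the 4 lower ones 3 were stable. Among writers Dnmt1 had 1.5 in both iTreg and Th17, against 1.9 and 1.8 in Th1 and Th2, and its difference of -0.20 was past the rounding rule but not stable. Dnmt3a had 1.1 and 1.3 against 1.2 and 1.0, and Dnmt3b had 1.0 and 0.7 against 1.2 in both, with an IgG signal of 326.1. Among readers, Mbd3 had 0.8 and 0.9 against 1.7 and 1.3, and Mbd1 had 0.6 and 0.8 against 1.2 in both. Zbtb38 was past the rule as well, at -0.36, while Zbtb4 was the single member past the rounding rule on the higher side, with 1.4 in both against 1.4 and 1.2 and an IgG signal of 6.5. The equal values in Zbtb4 part only once Th1 is divided by its larger library median, as they do in Il18 and Rpl21. Tet1, Tet2 and Tet3 differed by -0.05, -0.17 and -0.17, and none was past the rounding rule. Tet2 had 1.0 and 0.7 in iTreg and Th17, against 1.3 and 0.8 in Th1 and Th2.

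Imprinted genes, methylated on 1 parental copy at their control regions, had the lowest median of the lists with at least 9 measured members. Of 21 measured, 19 lay below the overall median and 2 above, with a list median of -0.28 against -0.09 for all gene areas. The list stayed below in 18 of 18 settings, between 0.09 and 0.21 under the overall median. Past the rounding rule were 5, all lower, 23.8% of the list where 10.7% of all gene areas were: Airn, Rtl1, Mest, Zim1 and Igf2r. Airn, the antisense transcript that silences Igf2r, had 0.5 in both iTreg and Th17, against 0.8 in both Th1 and Th2, with 0.7 in naive cells. Igf2r, which it overlaps, had 0.7 and 0.8 against 1.0 in both, so these 2 gene areas share signal. Mest had 1.2 and 1.1 against 1.6 and 1.5. Peg3 and Usp29, neighbours on chromosome 7, were the 2 above, with Peg3 at 1.0 in all 4 libraries. Under all scalings only Airn and Mest were stable.

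At the other end, the highest medians of the lists with at least 9 measured members were those of vomeronasal receptor genes, ribosomal protein genes and H2 genes of the major histocompatibility complex. Of 321 vomeronasal receptor genes, which serve the sensing of pheromones, only 9 passed the length and 5mC minimums. Of these 9, 2 lay below and 7 above the overall median, with a median of 0.06 that stayed above in 17 of 17 settings. Past the rounding rule, however, 0 were higher and 2 lower, Vmn2r11 and Vmn2r82. These 2 are 22.2% of the list, against 10.7% of all gene areas, and both were stable. Of 34 ribosomal protein genes 11 lay below and 23 above the overall median, with a median of 0.05, and the list stayed above in 17 of 17 settings. By the rounding rule 1 was higher, Rpl21, and 2 lower, Rpl6 and Rps18. The 2 lower ones are 5.88% of the list, where 10.7% of all gene areas were lower and 1.93% higher. Rpl21 had 1.3 and 1.4 in iTreg and Th17, against 1.3 and 1.1 in Th1 and Th2. These genes have many processed copies, so reads may have been split or lost among them, and these values are uncertain. Of 14 H2 genes 6 lay below and 8 above, with a median of 0.02, which was below the overall one in 2 of 18 settings. Genes of mast cells and basophils had a median of 0.06 over 6 members, and Gimap genes one of 0.10 over 4.

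Among markers of other cell types, those of B cells and of CD8 T and NK cells lay low as lists. Of 13 B cell genes 9 lay below and 4 above the overall median, with a median of -0.19, and of 13 CD8 T and NK cell genes 9 and 4, with a median of -0.17; both lists stayed below in 18 of 18 settings. The rounding rule found 3 B cell genes lower, 23.1% of the list where 10.7% of all gene areas were, with 1 stable, and 1 CD8 T and NK cell gene was lower, 7.69%, with 0 stable. Of 12 myeloid genes 6 lay below and 6 above, with a median of -0.08, and 3 were lower by the rounding rule, of which 2 were stable. Of 9 erythroid genes 4 lay below and 5 above, of 14 neuronal genes 6 and 8 and of 14 liver genes 5 and 9. Methylation of a marker gene does not count cells, and the part of other cells in any value was not tested. Kit, the stem cell factor receptor in the list of mast cells and basophils, was past the rounding rule on the higher side, with 7.0 and 5.1 in iTreg and Th17, against 4.9 and 4.8 in Th1 and Th2 and 5.6 in naive cells. Its difference was 0.36, and its IgG signal was 1.0. Of 51 clustered protocadherin genes 37 lay below and 14 above, with 2 higher and 5 lower (9.80%) by the rounding rule, and of 45 keratin genes 19 below and 25 above, with 3 higher and 4 lower (8.89%).

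Naive T cell genes, T cell lineage genes and T cell receptor signalling genes had medians of -0.16, -0.16 and -0.11, with 2 members each lower by the rounding rule (11.1%, 11.1% and 6.90%, against 10.7% of all gene areas) and 0 higher. Cd3e, a chain of the T cell receptor complex, had 0.6 in both iTreg and Th17, against 0.9 and 0.8 in Th1 and Th2, with 0.5 in naive cells. JAK, STAT and SOCS genes had a median of -0.10, where Socs5, a suppressor of cytokine signals, had 0.9 and 1.0 against 1.4 and 1.2. Retinoic acid and aryl hydrocarbon receptor genes had a median of -0.22, with Cyp1a2 at 0.8 and 0.5 against 1.3 and 1.0. Of 9 chemokine receptors 7 lay below the overall median, with Cxcr7, Cxcr2 and Cxcr4 lower by the rounding rule. These 3 are 33.3% of the list, against 10.7% of all gene areas, and only Cxcr7 was stable.

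Cell cycle, glycolysis and housekeeping genes had medians of -0.10, -0.06 and -0.09, close to that of all gene areas. Actb, cytoskeletal actin, had 0.6 in both iTreg and Th17, against 1.2 and 0.8 in Th1 and Th2, and was stable, though it overlaps another gene area. Germline genes had a median of -0.08 with 3 members lower by the rounding rule (12.5%), among them Dazl with 0.5 and 0.7 against 1.0 and 0.9. Of 39 Hox genes 5 were measured. Of these 5, Hoxb7 was higher and Hoxb4 and Hoxa3 lower by the rounding rule, with Hoxb4 at 0.6 and 0.7 against 1.0 and 1.1. The 2 lower ones are 40.0% of this short list, against 10.7% of all gene areas. Solute carriers and zinc finger genes, the 2 largest lists with 307 and 248 members, had medians of -0.10 and -0.08. Collagen, olfactory receptor and clustered histone genes had medians of -0.05, -0.04 and -0.47 over 34, 11 and 2 members. These members were left of 43, 1103 and 70 genes by the length and 5mC minimums.

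**Figure D5:**
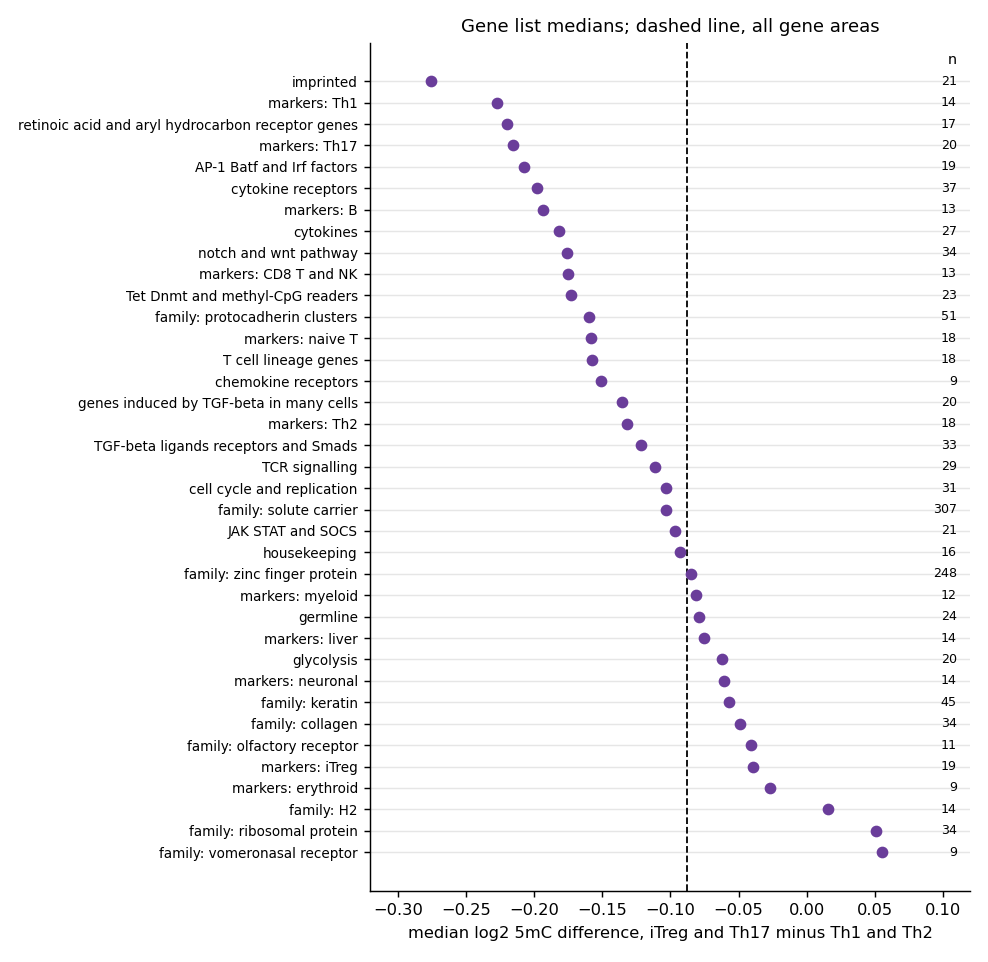
Median log2 5mC difference, iTreg and Th17 minus Th1 and Th2 (x axis), of gene lists with at least 9 measured members (rows, number of members at the right); the dashed line is the median of all 16571 gene areas, -0.09. Imprinted genes lie lowest at -0.28, vomeronasal receptor and ribosomal protein genes highest at 0.06 and 0.05.

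Gene areas past the rounding rule differed from the rest in size and kind. Higher ones had a median length of 10651 bp and lower ones 15541 bp, against 19173 bp for all members. Predicted gene names made up 37.8% of the higher and 20.4% of the lower gene areas, against 23.0% of all. Where RefSeq gave a type, 81.8% of the higher and 92.5% of the lower were protein-coding, against 90.9% of all. The differences had an SD of 0.29 in gene areas of 3000 to 5000 bp and 0.18 in those of 100000 bp or more. Gene areas under 10000 bp made up 80.0% of those higher and 59.3% of those lower by the size rule, against 28.7% of all members. Promoters of lower gene areas had a median of 19 CG pairs and those of higher ones 16, against 18 for the 11640 members with a promoter.

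Naive cells lay between the sides in these gene areas. In higher ones iTreg and Th17 had a median log2 difference of 0.19 from naive cells, and naive cells were 0.17 above Th1 and Th2. In lower ones the medians were -0.21 and -0.18, while over all members they were -0.05 and -0.05. The members were picked by the iTreg, Th17, Th1 and Th2 values that also enter these differences, so the signs are given as a description.

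The X chromosome lay apart from the autosomes. Its 423 gene areas had a median difference of -0.02, against -0.09 for 16148 autosomal ones, where single autosomes lay between -0.11 and -0.07. The mean 5mC of X gene areas divided by that of autosomal ones was 0.816 in iTreg and 0.807 in Th17, against 0.769 in Th1 and 0.762 in Th2, with 0.852 in naive cells and 0.862 in input DNA. The 2 sides did not overlap, and an exact permutation test cannot go below a two-sided p of 0.3333 here. In 5hmC the ratio was 0.795 for the iTreg label and 0.874 for the Th17 label, against 0.762 and 0.739 in Th1 and Th2, so the sides were apart in the same direction. In naive cells the 5hmC ratio was 0.653, under all of these. X gene areas had less 5mC, with a median mean of 0.70 against 0.94 on autosomes. By the rounding rule 6.62% of X gene areas were lower and 3.31% higher, against 10.8% and 1.90% of autosomal ones. By the size rule 4.26% of X gene areas were lower and 0.946% higher, against 2.95% and 0.471% of autosomal ones. X gene areas were thus less often lower by the first rule and more often by the second. Their differences had an SD of 0.25, against 0.21 on autosomes. The sex of the mice is not in the labels, and its part in this ratio was not tested.

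In the 5hmC libraries of the same cell types the differences followed those in 5mC only weakly. In the 16571 gene areas limma called 1 at an adjusted p under 0.05, 0.00603%, which was Batf3, an AP-1 family factor, with 15.0 under the iTreg label and 15.7 under the Th17 label, against 49.5 and 55.9 in Th1 and Th2. Its 5hmC difference was -1.50 with an adjusted p of 0.0495 by limma, and leaving out 1 library gave 95 calls without iTreg, 4 without Th17 and 0 without Th1 or without Th2. At an unadjusted p under 0.05, limma gave 510 gene areas with higher and 678 with lower 5hmC. The 5mC of Batf3 had overlapping sides, with 1.1 and 0.9 in iTreg and Th17, against 0.8 and 1.5. Across gene areas the rank correlation between the 5mC and 5hmC differences was 0.07 over 16571 gene areas that share no library but share mappability and base composition. In gene areas with higher 5mC by the rounding rule 59.7% had higher 5hmC too, in those with lower 5mC 47.1%, and in all members 53.1%.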

How the data were processed

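Genomic DNA of naive, Th1, Th2, iTreg and Th17 cells was sonicated, denatured and precipitated with antibodies to 5mC or 5hmC, per the labels' protocols, with control IgG and input DNA from Th17 cells and 1 library for each cell type and antibody. The deposited table holds a signal per gene area and library, rounded to 1 decimal; the authors' scaling and read depths were not given in the sources used here. CASAVA 1.7.0 and build mm9 are named in the submitters' processing notes. Gene areas are given by the file's own mm9 coordinates and length, end minus start.

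Repeated symbols were reduced to 1 row each, by largest mean 5mC, which removed 208 of 37752 rows. Members had a length of at least 3000 bp and a mean 5mC of at least 0.5. Each library was divided by its median over the members, 0.2 was added and log2 taken. The test of sides was limma's moderated one with a trend (limma 3.58.1, R 4.3.3), adjusted by Benjamini-Hochberg over 16571 gene areas. It was run on simulated data too, where the planted differences were larger than any found here. Whether it can find differences of the size seen here was not tested. Sides were also counted by the 2 rules without a test given in the text. Other steps used Python 3.11.15, pandas 2.3.3 and numpy 2.4.6. The 4 fits without 1 library and changes of pseudocount, filters and scaling were the alternatives.

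Genes are named by 3 rules: fixed T helper, TGF-beta and methylation genes; the 12 largest differences each way past the rounding rule, without predicted genes, chemosensory receptors and microRNAs; and the ends of each gene list or its members past the rounding rule. Some genes that these rules name are not reported here. The comparison, 41 gene lists and rules were chosen with earlier results of these data known; a list of antigen receptor segments was dropped after its values were seen, and Kit, Batf3 and the list members other than the 2 at each end were named after their values were seen. RefSeq gave a type for 15096 members and a promoter for 11640, matched by gene ID.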

Additional observations from a re-analysis of the deposited data

How the results depend on the processing

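By limma, 0 gene areas were called in 5mC under every alternative except one: without a minimum on the mean 5mC, 32 were called, all with equal deposited values within each side and a mean 5mC of at most 0.08, and 19 of them with equal values after scaling too. Gene areas past the size rule (sides apart, log2 difference of at least 0.5), 80 higher and 494 lower, became 123 higher with a pseudocount of 0.1, 25 and 129 with 0.5, 313 and 742 without a 5mC minimum, 28 and 63 at a mean of at least 1, 1057 and 943 without a length minimum, 121 and 32 at 10000 bp or more, 139 higher with medians over all gene areas, 168 and 210 with library means, 183 and 228 with interpolated medians, 183 and 223 with median ratios, 39 higher without scaling, and 0 and 4 at a log2 difference of at least 1. Those past the rounding rule, 320 higher and 1767 lower, became 516 higher without a 5mC minimum, 738 lower at a mean of at least 1, 2523 higher without a length minimum, 1185 and 429 at 10000 bp or more, 1031 higher with library means, 1053 and 1163 with interpolated medians, 1031 higher with median ratios and 120 higher without scaling. The lower share of those past the rounding rule was 26.6% at 10000 bp or more and 38.3% without a length minimum, where the iTreg and Th17 medians round to 0.8 and the median difference was 0.06 and 0.04. With 1 library left out fewer values have to stay apart, and the size rule gave 211 to 267 higher and 818 to 1026 lower, the rounding rule 965 to 1620 and 3263 to 4952; the smallest 5mC adjusted p by limma then lay between 0.173 and 0.645. In 5hmC limma called 0 to 95 gene areas with 1 library left out, 95 without iTreg, 4 without Th17 and 0 without Th1 or without Th2. Leaving out gene areas with an IgG signal of 5 or more, added after the data were seen, kept the lower share at 84.9%. Of 823 values of named genes under the alternatives, 713 moved by less than the spread within sides and 110 by more; of 693 list medians, 317 and 376 did. The step of 0.1, 1 library per cell type and the unknown depth limit every value.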
